A study of Rattus norvegicus with 3 samples.

Results

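Rat skeletal muscle that had received a Plin2 plasmid was compared with muscle that had received an empty plasmid, over all genes measured. Each side was 1 whole-transcript array, and the measure was the log2 level on the Plin2 array minus that on the empty vector array. Probe sets with a single gene symbol were taken, the brightest probe set stood for each gene, and genes with a mean over the 3 arrays of the series at or above the 25th percentile (a log2 level of 5.34) were kept. This left 10879 of 14506 genes. The genes nearest that limit were Gnat1 and Nell1 just under it (5.34 on every array) and Ly6g6f and Slc12a3 just above it (differences of −0.02 and 0.00).

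The muscle was the tibialis anterior of male Wistar rats, 11 weeks old, fed a high-fat diet (45% of energy from fat) for 3 weeks. Plasmid DNA (150 µg) was brought into the muscle by electric pulses after 2 weeks of the diet, and the muscle was taken 8 days later. The groups were pENTR-CMV-Plin2 (Plin2, also called ADRP), pcDNA3.1-empty vector, and pcDNA3.1-CMV-Plin5 (Plin5, also called OXPAT), the last shown here only for its levels. The CMV promoter is not specific to muscle fibres, so any cell that took up the plasmid could express the insert. The Plin2 plasmid has another backbone than the empty one, so insert and backbone cannot be told apart. Each array held RNA pooled from 6 rats, with no other array of the group. No difference below was therefore tested, none has an error between animals, and a count past 1.5-fold describes these arrays only.

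Perilipin 2 is a protein on the surface of lipid droplets that is found in most cell types, muscle fibres included. It limits the access of lipases to the stored triglyceride, and its level commonly follows the amount of stored lipid. Skeletal muscle is also a source of secreted factors, an excitable tissue with many ion channels, and the target of motor nerves. When a fibre is damaged or loses its nerve, genes of the postsynaptic membrane and of muscle precursors are known to become active outside the junction.

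Where 3 levels of a gene are given below, they are log2 levels on the empty vector, Plin2 and Plin5 arrays, in that order. The Plin2 gene itself stood at 9.99, 10.71 and 10.08, highest on its own array by 0.71 (1.64-fold) over the empty vector. Plin5 stood at 7.52, 6.79 and 8.30, so the Plin2 array was the lowest of the 3 for this perilipin. Plin1 (5.94) and Plin3 (7.10) had equal values on all 3 arrays. Whether the rat probes detect the introduced transcript in full is not given in the sources used here.

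The labelled tissue was checked against its markers. All 18 skeletal muscle fibre markers were kept, with a mean level of 13.27, 12.89 and 13.32. Acta1, the brightest of them, had the highest mean level of all kept genes (14.03). Whether differences come out smaller at such levels was not tested. All 18 were below the empty vector on the Plin2 array, from Acta1 (skeletal actin, −0.02) and Des (desmin, −0.05) to Myh2 (fast myosin, −0.98) and Myh7 (slow myosin, −1.75), with 4 past 1.5-fold. Of other cell types, macrophage markers were higher for 20 of 22 (mean level 9.33, 10.45 and 8.91) and T and natural killer cell markers for 15 of 18 (7.57, 8.62 and 7.50). Satellite cell and myoblast markers were higher for 7 of 11 (9.58, 10.24 and 9.31). No endothelial (13 genes), smooth muscle and pericyte (13) or B and plasma cell (6) marker was past 1.5-fold. Fibroblast markers were higher for 2 of 13 and lower for 1, with 11 above the empty vector and a median of 0.14 (mean level 10.56, 10.77 and 10.46). Adipocyte markers were higher for 1 of 11 (9.09%) and Schwann cell markers for 1 of 9 (11.1%), both with a median of 0.00. Tendon markers were lower for 1 of 8 (12.5%). Mast cell markers were lower for 2 of 8 and erythroid markers for 3 of 6, with 1 erythroid marker higher. Over all kept genes, 8.84% were higher and 5.80% lower, and counts in lists this short rest on few genes. Only 1 of 12 neutrophil markers, Csf3r, was kept. In RNA of whole muscle, more cells of a type and more RNA per cell cannot be told apart, and the part of these cell types in the results below was not tested.

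Across the genome, 962 genes (8.84%) were at least 1.5-fold higher on the Plin2 array and 631 (5.80%) at least 1.5-fold lower, 14.6% in all. The larger differences also leaned upward, with 272 against 142 genes past 2-fold, 27 against 22 past 3-fold and 9 against 4 past 4-fold. The median difference was 0.00, the middle 90% of genes lay between −0.63 and 0.79, and the extremes were −2.28 (Lgi3) and 4.23 (Spp1). Exactly equal values on both arrays were found for 3263 genes. With the genes split by mean level into 5 groups of like size, from dim to bright, 75, 217, 251, 238 and 181 of them were higher. Lower genes were mostly bright, with 18, 50, 112, 176 and 275 in the same groups. Median-centring of the arrays changed the split to 828 higher and 739 lower.

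**Figure D1:**
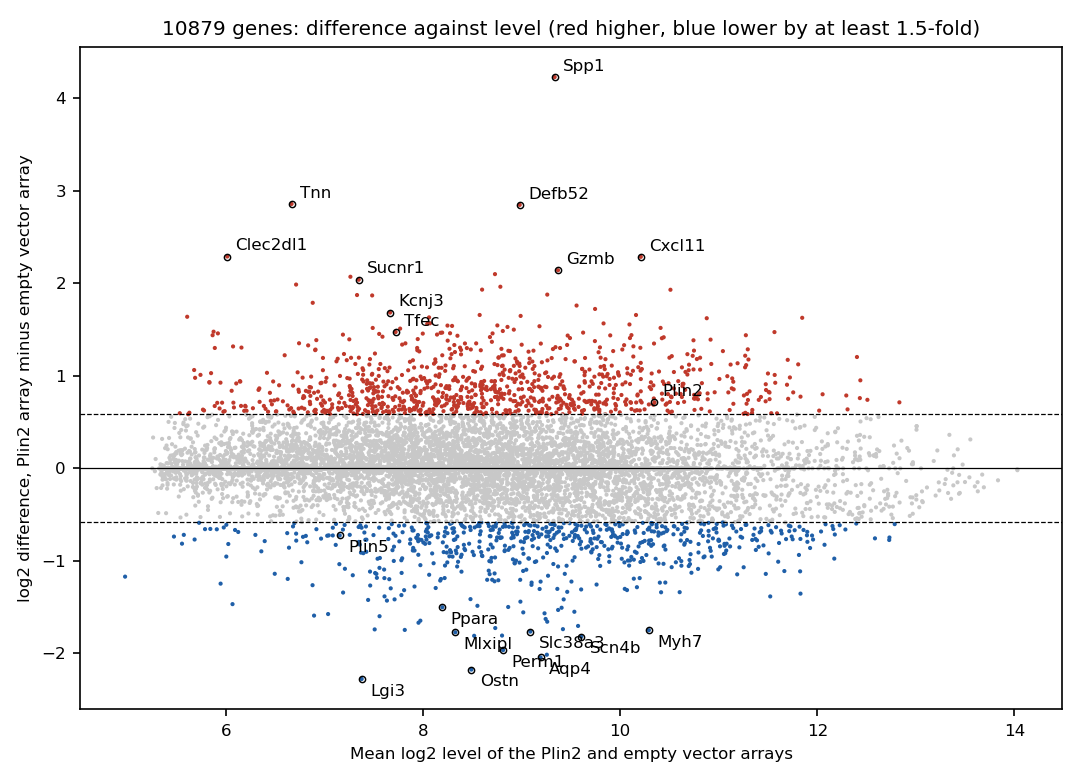
Each point is 1 of 10879 genes, with the mean log2 level of the Plin2 and empty vector arrays on the horizontal axis and the log2 difference on the vertical axis. Red points (962) are higher and blue points (631) lower by at least 1.5-fold, the dashed lines; Spp1 stands alone at 4.23, and the named lower genes end at Lgi3 (−2.28).

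Several of the 20 largest differences each way were in genes outside the classes described below. P4ha3, a subunit of the enzyme that hydroxylates collagen prolines, stood at 6.39, 8.27 and 6.39 (3.67-fold higher). Clec7a, a receptor for fungal glucans on myeloid cells, stood at 8.68, 10.44 and 8.35 (3.39-fold). Both were high on the Plin2 array alone among the 3. In the other direction, Ppp1r1a, an inhibitor of protein phosphatase 1, stood at 10.43, 8.72 and 10.43, and Car14, a membrane carbonic anhydrase, at 10.09, 8.43 and 10.33. Here the Plin2 array was the low one. Myoc, which encodes the secreted protein myocilin, stood at 8.38, 6.64 and 7.99.

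Gene lists for secreted proteins, membrane proteins, neural genes and transcription factors held 1565 kept genes, of which 243 were higher and 100 lower. Members and lists were chosen with earlier results of these data known, so the shares describe these lists only. The classes differed in how far they left the background shares of 8.84% higher and 5.80% lower. Secreted genes were higher for 86 of 356 (24.2%) and lower for 15 (4.21%). These lists do not hold every secreted protein: Lgi3 was counted as neural and Myoc in no class. Membrane genes were higher for 96 of 555 (17.3%) and lower for 42 (7.57%). Neural genes were near the background, with 34 of 323 higher (10.5%) and 18 lower (5.57%), as were transcription factor genes, with 36 of 378 higher (9.52%) and 27 lower (7.14%). Lists within a class lay on opposite sides, as the plot of shares by list shows, and some genes are in more than 1 list. Median-centring took the neural split from 34 against 18 to 26 against 21, and it turned the transcription factor split to 25 higher against 27 lower.

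**Figure D2:**
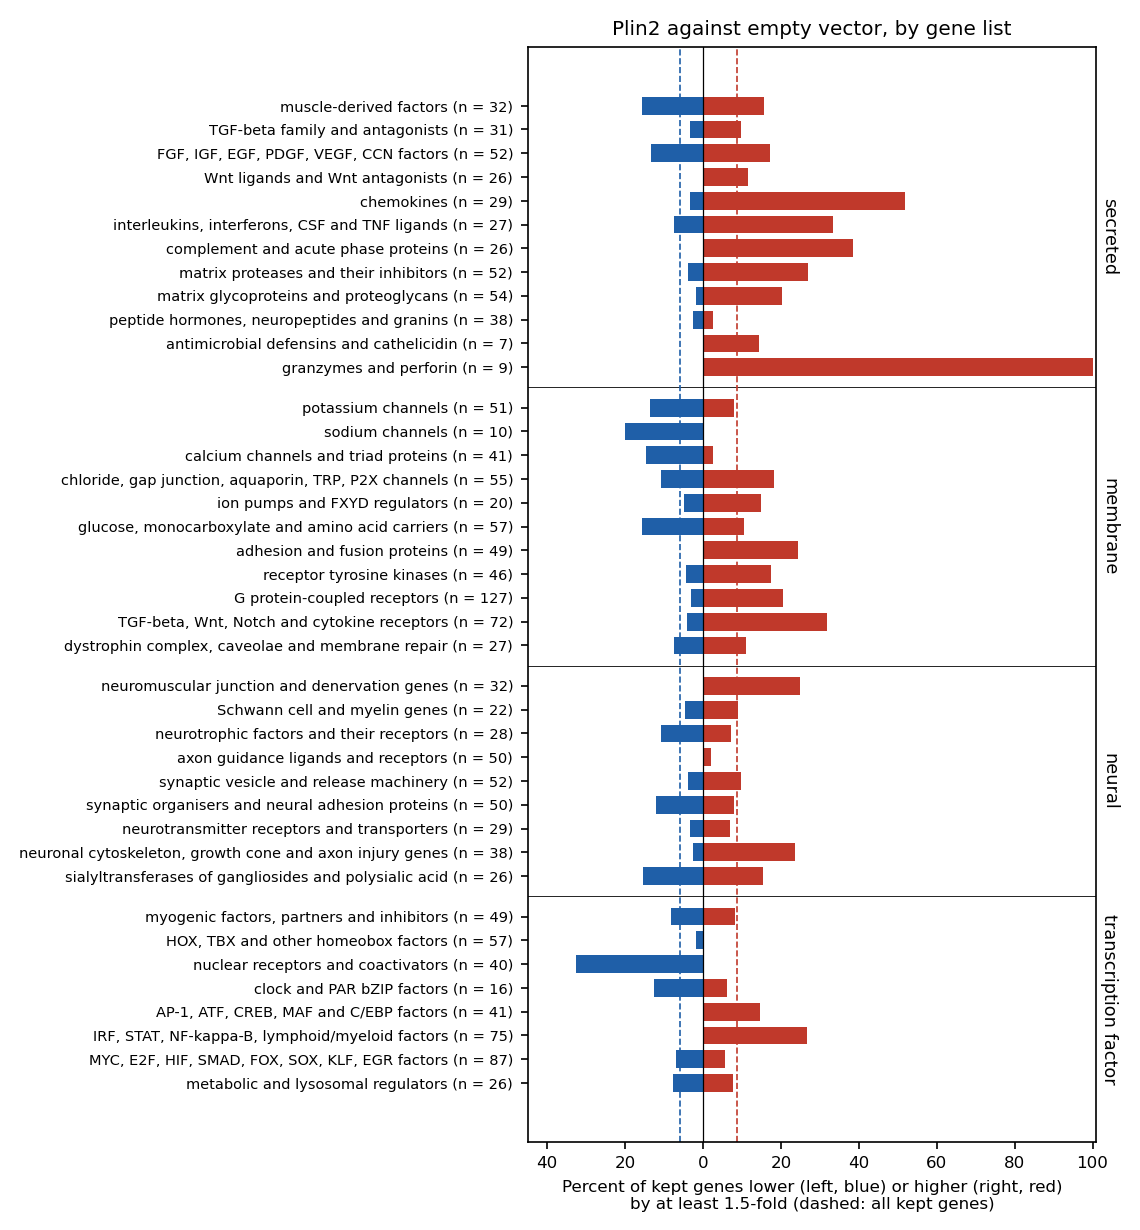
Bars give the percent of kept genes in each of 40 lists that were higher (red, right) or lower (blue, left) on the Plin2 array by at least 1.5-fold, with the number of kept genes in brackets. Dashed lines mark the shares over all kept genes, 8.84% higher and 5.80% lower. Granzymes and perforin reach 100% higher and nuclear receptors 32.5% lower. The lists were chosen with earlier results of these data known.

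Secreted genes with roles in leukocyte traffic and killing stood mostly higher. Of 29 chemokines, 15 were higher (51.7%, against 8.84% of all genes) and 1 lower (3.45%, against 5.80%). Their median difference was 0.67, against 0.00 over all genes. Cxcl11 stood at 9.07, 11.35 and 10.01 (4.88-fold) and Cxcl10 at 9.54, 11.48 and 10.04 (3.81-fold); both bind the receptor CXCR3 of activated T cells. The monocyte attractants Ccl2 (10.83, 12.30 and 11.71) and Ccl7 (7.46, 8.93 and 8.08) were highest on the Plin2 array as well, with the Plin5 array between the other arrays in all 4 cases. Ccl24, an attractant of eosinophils, was the exception at 7.70, 7.06 and 7.62. All 9 genes of the granzyme and perforin list were higher, between 0.65 and 2.14. Gzmb, a granule protease of cytotoxic lymphocytes, stood at 8.30, 10.44 and 9.09, and Prf1, the pore protein perforin, at 7.54, 9.01 and 7.72. Markers of T and natural killer cells, with which this list shares genes, were higher for 15 of 18 on the same array, none of them under the dim level on the empty vector array. The part of these cells in the levels given was not tested.

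Cytokines were less uniform. Of 27 kept interleukins, interferons and related ligands, 9 were higher (33.3%, against 8.84% of all genes) and 2 lower (7.41%, against 5.80%). The interleukin 1 receptor antagonist Il1rn stood at 8.32, 10.20 and 8.39 (3.68-fold) and interleukin 1 beta itself, Il1b, at 7.29, 8.44 and 7.64 (2.22-fold). Agonist and antagonist were thus both highest on the Plin2 array. The same held for Il18 (7.01, 8.52 and 6.70) and its binding protein Il18bp (8.38, 9.36 and 8.75). Interferon gamma, Ifng, was under the dim level on the empty vector array, at 5.24, 6.54 and 6.15, so the size of its difference is uncertain. The lower genes were Ctf1, the cytokine cardiotrophin 1 (8.03, 7.27 and 8.22), and Thpol1 (7.52, 6.86 and 7.66).

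Complement and matrix genes were higher in part. Of 26 complement and acute phase genes, 10 were higher (38.5%, against 8.84% of all genes) and 0 lower. Fcnb, a ficolin that starts the lectin pathway, stood at 7.63, 9.57 and 8.55, and the protease inhibitor A2m at 6.55, 8.42 and 6.18. The 3 chains of C1q stood together, C1qa at 10.56, 11.68 and 10.09, C1qb at 10.16, 11.23 and 9.59, and C1qc at 10.14, 11.18 and 9.48. These 3 genes also belong to the macrophage markers. Of 52 matrix proteases and inhibitors, 14 were higher (26.9%) and 2 lower (3.85%, against 5.80% of all genes). Mmp12, macrophage elastase, was at 4.79, 6.43 and 5.14, dim on all but the Plin2 array. Timp1, an inhibitor of matrix metalloproteinases, was at 10.65, 11.94 and 10.37, and the lower genes were Adamtsl4 (−0.77) and Adamtsl5 (−0.64).

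Matrix glycoproteins were higher for 11 of 54 (20.4%, against 8.84% of all genes) and lower for 1 (1.85%, against 5.80%). Spp1, osteopontin, stood at 7.22, 11.45 and 8.24, an 18.8-fold difference and the largest of all kept genes. Tnn, tenascin N, stood at 5.24, 8.10 and 5.00, dim without the Plin2 plasmid. Thbs1, thrombospondin 1 (9.68, 10.76 and 9.67), and Lgals3, galectin 3 (9.55, 10.86 and 9.14), were highest on the Plin2 array too. The single lower member was Kera, the proteoglycan keratocan, at 9.13, 8.38 and 8.10; it is also a tendon marker, and 5 of 8 tendon markers were below the empty vector. Collagens, by contrast with these glycoproteins, were at the background share, with 2 of 25 genes higher (8.00%). Of 7 kept defensins and cathelicidin, only Defb52 was past 1.5-fold, at 7.56, 10.41 and 6.03. That family has close copies, so the level of Defb52 is uncertain.

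Growth factors went both ways. Of 52 factors of the FGF, IGF, EGF, PDGF, VEGF and CCN families, 9 were higher (17.3%) and 7 lower (13.5%), and the median was 0.00. Over all genes the shares were 8.84% and 5.80%. Within the VEGF family Vegfd, a lymphatic growth factor, stood at 7.27, 8.73 and 6.86 (2.75-fold higher). Vegfa, the main angiogenic member, stood at 10.58, 9.58 and 10.83 (2.00-fold lower), and Vegfb at 11.28, 10.62 and 11.44. Members of 1 family thus lay on opposite sides. Fgf1 (8.32, 7.02 and 8.69) and Fgf6 (7.07, 5.93 and 7.07), the latter a factor made by muscle, were lower, as were the EGF receptor ligands Hbegf (8.75, 7.70 and 8.43) and Egf (8.28, 7.28 and 8.24). Mdk, midkine, was higher at 7.54, 8.71 and 7.51, and so was Grn, progranulin, at 11.23, 12.21 and 10.67. Among 26 Wnt ligands and antagonists no ligand was past 1.5-fold, and the 3 higher genes were the antagonists Sfrp2 (9.65, 11.17 and 9.19), Sfrp1 (7.58, 8.81 and 7.48) and Dkk3 (0.62, or 0.57 after median-centring).

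Factors known to be made by muscle itself were higher for 5 of 32 (15.6%) and lower for 5 (15.6%), against 8.84% and 5.80% of all genes. Spp1, given above with the matrix glycoproteins, was also in this list and had its highest difference (4.23). Ostn, the peptide musclin, stood at 9.58, 7.40 and 10.27, a 4.52-fold difference and lowest on the Plin2 array. Musclin is known to bind the natriuretic peptide clearance receptor, and that receptor's gene, Npr3, stood at 8.16, 6.73 and 7.88 (2.68-fold lower). Ligand and receptor were thus both lowest on this array. Mstn, myostatin, an inhibitor of muscle growth, stood at 8.05, 7.35 and 8.00, while Fst, follistatin, which binds and blocks it, stood at 6.97, 7.80 and 6.97. Metrnl, a meteorin-like factor, was higher (8.42, 9.39 and 8.14), and so was Angptl4, an inhibitor of lipoprotein lipase (7.74, 8.57 and 8.32). Most peptide hormones and neuropeptides stayed within 1.5-fold: besides Ostn, only Tac3 (0.64, or 0.58 after median-centring) of 38 kept genes was past it. Many of these genes were dim, with a median level of 5.90 on the empty vector array and equal values for 24.

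**Figure D3:**
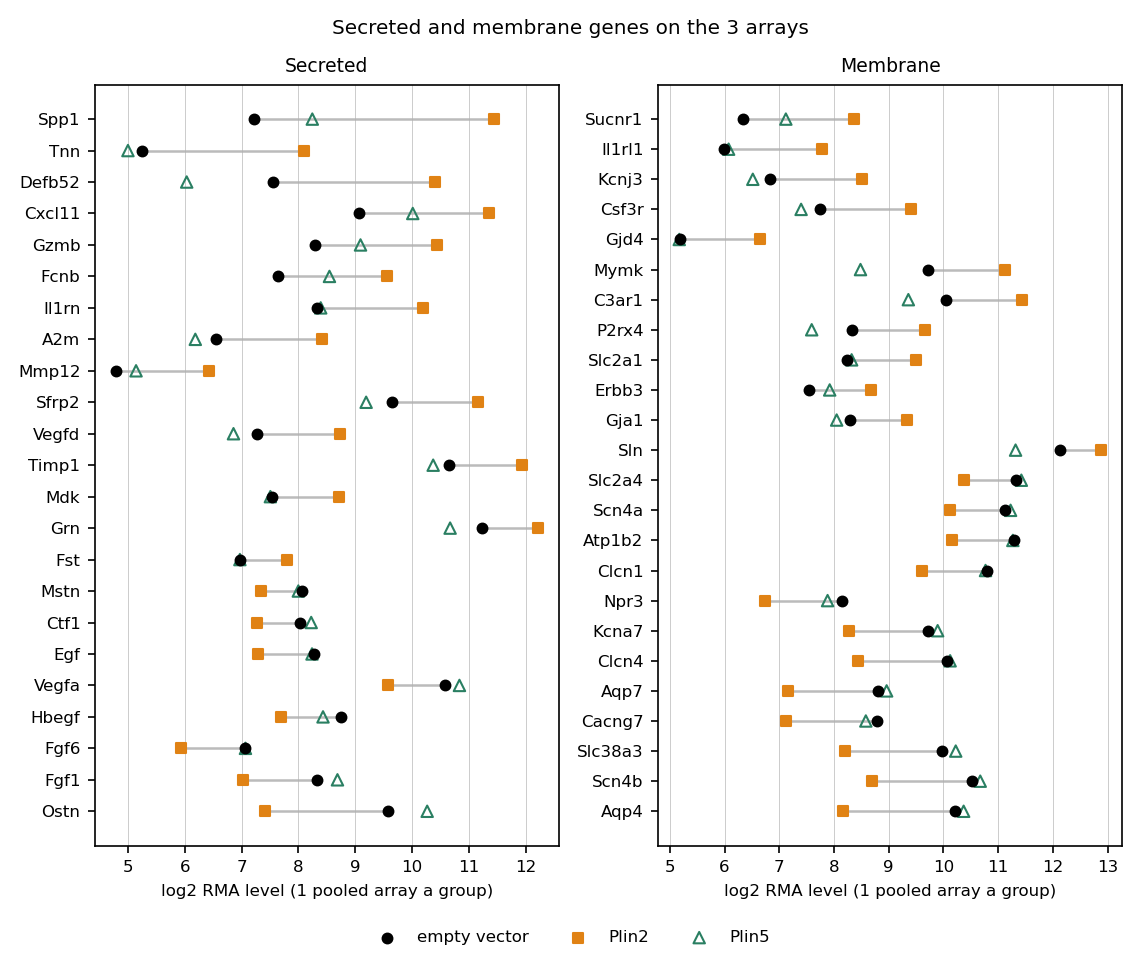
Log2 levels of named secreted genes (left) and membrane genes (right) on the empty vector (black circles), Plin2 (orange squares) and Plin5 (green triangles) arrays, 1 pooled array a group, with a grey line between the empty vector and Plin2 levels. The Plin2 square is the highest of the 3 from Spp1 to Fst and from Sucnr1 to Sln, and the lowest from Mstn to Ostn and from Slc2a4 to Aqp4.

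Several ion channels of the muscle fibre were lower on the Plin2 array. Of 51 potassium channel genes, 7 were lower (13.7%, against 5.80% of all genes) and 4 higher. The voltage-gated channel Kcna7 stood at 9.71, 8.27 and 9.89. The inward rectifiers Kcnj11, which forms the pore of the ATP-sensitive channel (9.64, 8.63 and 9.60), and Kcnj2 (9.27, 8.39 and 9.43) were lower as well. Kcnj3, a rectifier opened by G proteins, was the opposite at 6.82, 8.51 and 6.52 (3.21-fold higher). Of the other 3 higher genes, Kcna3 (a difference of 0.86) and Kcnn4 (7.18, 8.01 and 6.98) are known in lymphocytes and macrophages. Markers of T and natural killer cells were higher for 15 of 18 and those of macrophages for 20 of 22. Their part in these levels was not tested.

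The channels that carry the action potential were among the lower genes. Scn4a, the sodium channel of skeletal muscle, stood at 11.12, 10.12 and 11.23 (2.00-fold), and Scn4b, an accessory subunit, at 10.52, 8.70 and 10.67 (3.53-fold). They were the only ones past 1.5-fold among 10 kept sodium channel genes. Clcn1, the chloride channel that sets the resting conductance of the fibre, stood at 10.79, 9.61 and 10.77. At the triad the action potential is coupled to calcium release. Of 41 genes for calcium channels and the triad, 6 were lower (14.6%, against 5.80% of all genes) and 1 higher (2.44%, against 8.84%). Among them were Cacng6, a subunit of the muscle calcium channel (11.52, 10.63 and 11.45), Jph2, junctophilin 2 (11.20, 10.39 and 11.17), and Hrc, a calcium-binding protein of the sarcoplasmic reticulum (11.24, 10.56 and 11.26). The higher gene was Cacnb3 (0.60, or 0.54 after median-centring). On the Plin5 array the genes named here lay between −0.08 (Cacnb3) and 0.16 (Scn4b) from the empty vector. Muscle fibre markers were below the empty vector for 18 of 18 on the Plin2 array, with a median of −0.27. Those markers were brighter on average (mean level 13.27 on the empty vector array) than the genes named here.

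In the list of 55 chloride channel, gap junction, aquaporin, TRP and ATP-gated channel genes, 10 were higher (18.2%) and 6 lower (10.9%). Aqp4, the water channel of fast fibres, stood at 10.22, 8.17 and 10.37 (4.12-fold lower), and Aqp7, which also passes glycerol, at 8.80, 7.15 and 8.96 (3.13-fold lower). The connexin genes Gjd4, at 5.19, 6.65 and 5.17 and dim on all but the Plin2 array, and Gja1, at 8.29, 9.33 and 8.05, were higher. Of the ATP-gated channels, P2rx4 was higher at 8.33, 9.67 and 7.59 and P2rx6 lower at 8.30, 6.92 and 8.34. Among 20 ion pump genes 3 were higher (15.0%) and 1 lower (5.00%). The higher ones were the sodium pump regulators Fxyd5 (9.31, 10.32 and 9.13) and Fxyd2 (a log2 difference of 0.63, or 0.58 after median-centring) and Sln, sarcolipin, an inhibitor of the calcium pump (12.14, 12.88 and 11.32). The lower one was Atp1b2, a sodium pump subunit (11.29, 10.16 and 11.27).

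Nutrient carriers stood on both sides within families. Of 57 carriers of glucose, monocarboxylates and amino acids, 9 were lower (15.8%, against 5.80% of all genes) and 6 higher (10.5%, against 8.84%). Slc2a4, the insulin-responsive glucose transporter GLUT4, stood at 11.33, 10.38 and 11.42, and Slc2a1, the widely expressed GLUT1, at 8.23, 9.50 and 8.32. The Plin2 array was lowest for the former and highest for the latter. Slc16a3, the lactate exporter MCT4, stood at 12.22, 10.83 and 12.20, whereas Emb, embigin, a partner protein of monocarboxylate carriers, stood at 7.12, 8.46 and 7.01. Of amino acid carriers, Slc38a3 (glutamine) stood at 9.97, 8.21 and 10.23, and Slc7a5 (large neutral amino acids) at 8.94, 9.85 and 8.25. Over all 239 kept solute carrier genes of the SLC series, 20 were higher (8.37%) and 18 lower (7.53%), close to the background.

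Receptors and adhesion proteins were higher more often than genes overall. Of 127 genes in the list of G protein-coupled receptors, 26 were higher (20.5%) and 4 lower. Sucnr1, the receptor for succinate, stood at 6.33, 8.37 and 7.12 (4.11-fold). C3ar1, the receptor for complement fragment C3a (10.05, 11.44 and 9.36), and Cx3cr1, the fractalkine receptor (8.02, 9.38 and 7.54), were highest on the Plin2 array and lowest on the Plin5 array. The lower 4 were Npr3, which has a single membrane span and was only listed with this group, Adgrb2 (−1.09), P2ry1 (−0.85) and Adra1a, an adrenergic receptor (−0.79). Of 72 receptors of the cytokine, TGF-beta, Wnt and Notch families, 23 were higher (31.9%) and 3 lower. Il1rl1, the receptor for interleukin 33, stood at 5.99, 7.78 and 6.07, and Csf3r, the receptor for granulocyte colony stimulating factor, at 7.75, 9.40 and 7.40. The lower ones were Ghr, the growth hormone receptor (10.74, 9.92 and 10.84), Dll4, a Notch ligand (8.51, 7.80 and 8.73), and Cntfr (9.60, 8.91 and 9.49).

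Among 49 adhesion and fusion genes 12 were higher (24.5%), and the lowest difference was −0.41. The leukocyte integrins Itgam (7.62, 8.92 and 7.25), Itgb2 (9.30, 10.56 and 8.78) and Itgal (8.96, 10.12 and 8.35) were high on the Plin2 array. So was Mymk, myomaker, the membrane protein that fuses myoblasts, at 9.72, 11.13 and 8.48. Its level was lowest on the Plin5 array. Of 46 receptor tyrosine kinases, 8 were higher (17.4%, against 8.84% of all genes) and 2 lower (4.35%, against 5.80%). Mertk (7.11, 8.17 and 7.06) and Axl (10.13, 10.90 and 9.64), receptors for the clearance of dying cells, were higher, and Insr, the insulin receptor, was lower at 10.61, 9.95 and 10.80. Both of its probe sets were lower, with differences of −0.66 on the brighter and −0.63 on the dimmer. The dystrophin complex and membrane repair list was near the background, with 3 of 27 higher (11.1%), 2 lower (7.41%) and a median of 0.00. Capn3 (−0.76) and the sarcoglycan Sgcd (−0.71) were lower, and the membrane trafficking gene Ehd4 (0.85) and the annexins Anxa1 (0.69) and Anxa2 (0.75), which patch torn membrane, were higher.

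Neural genes were examined from the muscle's side of the nerve contact first. In the list of neuromuscular junction and denervation-responsive genes, 8 of 32 were higher and 0 lower, 23 were above 0 and 5 below, and the median was 0.25. Chrna1, the alpha subunit of the muscle acetylcholine receptor, stood at 11.24, 12.37 and 10.73 (2.18-fold). The other subunits were within 1.5-fold: Chrng, the fetal gamma subunit, at 8.01, 8.56 and 7.46, Chrnd at 9.55, 9.94 and 9.31, Chrne, the adult epsilon subunit, at 7.98, 8.28 and 7.53, and Chrnb1 at 9.22, 9.20 and 9.25. All but Chrnb1 were highest on the Plin2 array and lowest on the Plin5 array. Musk, the kinase that gathers the receptors under the nerve, was at 8.91, 9.50 and 8.48, a difference of 0.60 that was 0.54 after median-centring and 0.57 after repeated quantile normalization, under 1.5-fold.

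The other higher genes of the list were not specific to the synapse. Myog, myogenin, a myogenic factor (8.89, 9.88 and 8.42), Ncam1, an adhesion protein of immature and denervated fibres (11.11, 11.93 and 10.50), Nes, the intermediate filament nestin (8.39, 9.13 and 8.06), and Runx1 (10.12, 10.83 and 9.94) were highest on the Plin2 array. Erbb3, a neuregulin receptor, stood at 7.55, 8.68 and 7.92, and Cdk5r1 at 6.76, 7.35 and 6.74, a difference of 0.59 that was 0.53 after median-centring. Structural parts of the synapse were close to the empty vector, with Agrn (agrin) at 0.15, Lrp4 (its receptor) at 0.29, Rapsn (rapsyn) at 0.29, Utrn (utrophin) at 0.04, Lamb2 at −0.07 and Colq at −0.18. Ache, acetylcholinesterase, had the lowest difference of the list (10.06, 9.68 and 10.05), followed by Dok7, an activator of Musk (−0.32). Satellite cell and myoblast markers, among them Myog and Ncam1, were higher for 7 of 11 on the same array, and their part in these values was not tested.

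Promoters of 3 of these genes are shown, from those that hold the E-box CAGCTG, a sequence that myogenic factors can bind. Chrne and Chrnb1, with differences of 0.29 and −0.02, also hold a match and are not shown. In the RefSeq promoter table (GRCr8, 250 bases before to 50 after each start) 25 genes of the list had a promoter, and 10 of them held CAGCTG, against 15.1% of 27457 promoters and 17.0% of the kept genes. CAGCTG reads the same on both strands, and among kept genes its share was 19.2% in the higher and 18.9% in the lower. The 250 bases before each start follow, 5′ to 3′ on the strand of the gene, with CAGCTG in capitals. Chrna1 lies on the minus strand at chr3:78877354-78877603, with matches that begin 75 and 27 bases before the start. Chrng lies on the plus strand at chr9:95325734-95325983, with a match 26 bases before the start. A further match begins 3 bases before the start of Chrng and runs past it, so it is not marked in the bases shown. Musk lies on the plus strand at chr5:77853486-77853735, with a match 79 bases before the start. A match describes the letters and is not evidence of binding.
Chrna1: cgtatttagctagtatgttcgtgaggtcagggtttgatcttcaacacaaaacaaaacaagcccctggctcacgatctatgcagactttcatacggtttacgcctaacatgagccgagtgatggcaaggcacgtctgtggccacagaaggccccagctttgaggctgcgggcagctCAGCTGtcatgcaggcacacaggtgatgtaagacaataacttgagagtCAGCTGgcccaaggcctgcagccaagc
Chrng: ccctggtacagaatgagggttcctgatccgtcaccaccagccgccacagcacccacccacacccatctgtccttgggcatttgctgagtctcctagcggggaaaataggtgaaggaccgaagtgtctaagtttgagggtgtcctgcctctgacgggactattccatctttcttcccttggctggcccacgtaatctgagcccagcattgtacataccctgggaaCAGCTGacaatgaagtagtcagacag
Musk: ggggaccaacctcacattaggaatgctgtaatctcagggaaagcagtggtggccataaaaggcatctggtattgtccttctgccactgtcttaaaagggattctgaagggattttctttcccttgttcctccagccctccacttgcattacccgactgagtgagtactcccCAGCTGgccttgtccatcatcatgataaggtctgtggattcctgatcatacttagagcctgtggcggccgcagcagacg

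**Figure D4:**
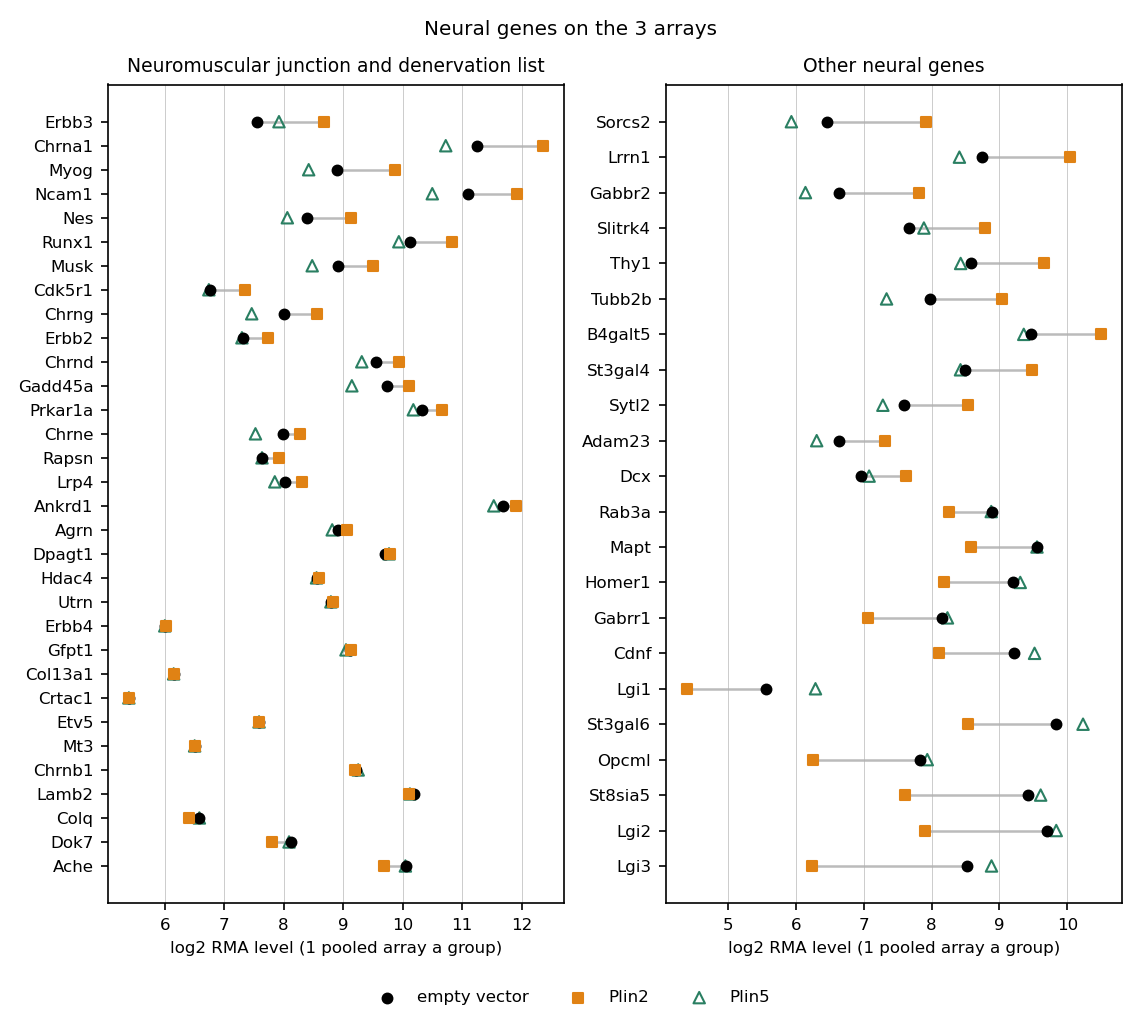
Log2 levels of the 32 kept genes of the neuromuscular junction and denervation list (left, ordered by the Plin2 difference) and of other named neural genes (right) on the empty vector (black circles), Plin2 (orange squares) and Plin5 (green triangles) arrays. The left panel runs from Erbb3 (1.13) to Ache (−0.38), and the right panel from Sorcs2 (1.45) to Lgi3 (−2.28).

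Genes for synaptic organisers included the lowest value of all kept genes. Lgi3 stood at 8.52, 6.24 and 8.88 (4.85-fold lower), Lgi2 at 9.71, 7.90 and 9.84 (3.50-fold) and Lgi1 at 5.56, 4.39 and 6.29 (2.25-fold). The family encodes secreted leucine-rich proteins, of which Lgi1 is known to bind ADAM receptors at synapses. Lgi1 was under the dim level on the Plin2 array, so the size of its difference is uncertain. Adam23, such a receptor, was on the other side at 6.64, 7.32 and 6.31. Opcml, a neural adhesion protein, stood at 7.83, 6.25 and 7.94, and Homer1, a scaffold that is also found at the triad of muscle, at 9.19, 8.19 and 9.31. Lrrn1 (8.74, 10.04 and 8.41) and Slitrk4 (7.67, 8.79 and 7.89), both leucine-rich membrane proteins, were higher. In all, 6 of 50 organiser genes were lower (12.0%) and 4 higher (8.00%).

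Of 28 neurotrophic genes, 3 were lower (10.7%, against 5.80% of all genes) and 2 higher (7.14%, against 8.84%). Cdnf, a factor for dopamine neurons, stood at 9.22, 8.11 and 9.52, and Sorcs2, a receptor of the sortilin family, at 6.47, 7.91 and 5.94. The receptor for ciliary neurotrophic factor, Cntfr, and the related ligand Ctf1 were both lower, as given above. Of 29 kept transmitter receptors and transporters, 2 were higher and 1 lower, no more than the background shares: Gabbr2 was higher (6.64, 7.81 and 6.14), Gabrr1 was lower (8.15, 7.06 and 8.23), and Htr2b was higher (6.29, 7.27 and 5.83). Axon guidance genes were close to the empty vector, with 1 of 50 higher (Ephb3, 0.66, or 0.58 after repeated quantile normalization), 0 lower and the lowest at −0.58. Schwann cell and myelin genes were at the background, with 2 of 22 higher (9.09%) and 1 lower (4.55%). The brighter probe set of the myelin gene Mbp stood at 6.92, 6.92 and 6.90. Its dimmer probe set stood at 6.60, 6.27 and 6.55, a difference of −0.33.

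The neuronal cytoskeleton and growth cone list was higher for 9 of 38 genes (23.7%) and lower for 1. Tubb2b, a tubulin of growing neurons, stood at 7.98, 9.04 and 7.34, and Thy1, a surface protein also counted among fibroblast markers, at 8.58, 9.65 and 8.43. Dcx, doublecortin, stood at 6.96, 7.62 and 7.08, a difference of 0.66 that was 0.58 after repeated quantile normalization. The lower gene was Mapt, tau, at 9.56, 8.58 and 9.55. Of 26 enzymes of gangliosides and polysialic acid, 4 were lower (15.4%, against 5.80% of all genes) and 4 higher (15.4%, against 8.84%). St8sia5 stood at 9.42, 7.61 and 9.61 (3.51-fold lower) and St3gal6 at 9.84, 8.53 and 10.23 (2.47-fold lower), both sialyltransferases. B4galt5, a galactosyltransferase that makes lactosylceramide (9.46, 10.50 and 9.36), Ugcg, glucosylceramide synthase (9.10, 9.86 and 9.22), and B4galnt1, which begins complex gangliosides (7.08, 7.93 and 7.07), were higher. St3gal4, another sialyltransferase, was higher as well at 8.49, 9.48 and 8.43.

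Among the transcription factor lists, nuclear receptors had the largest share lower and factors of immune lineages the largest share higher. Of 40 nuclear receptors and coactivators, 13 were lower (32.5%) and 0 higher. Perm1, a muscle regulator of mitochondrial genes, stood at 9.80, 7.83 and 10.21 (3.90-fold lower). Ppara, the receptor that governs fatty acid oxidation, stood at 8.95, 7.45 and 9.19, and Esrrg, an estrogen-related receptor, at 8.02, 6.91 and 8.26. Nr1d1, a receptor of the circadian clock, stood at 11.08, 9.84 and 11.10, and Lpin1, which acts both as a lipid phosphatase and as a coactivator, at 10.12, 8.89 and 10.27. All 5 were lowest on the Plin2 array. The coactivator Ppargc1a (10.16, 9.39 and 10.42), named here after its value was seen, was lower too, and Pparg was on the other side within 1.5-fold (7.51, 8.06 and 7.02). Muscle fibre markers, which were brighter on average, had a median of −0.27 on the same array.

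Factors of the IRF, STAT and NF-kappa-B families and of lymphoid and myeloid lineages were higher for 20 of 75 (26.7%) and lower for 0. Tfec, a factor of macrophages, stood at 6.99, 8.46 and 6.99, and Spi1, which encodes PU.1, at 8.53, 9.69 and 8.04. Irf8, a factor of myeloid cells, stood at 9.25, 10.35 and 8.74. Irf1, an interferon-induced factor, stood at 8.80, 10.13 and 9.55, and Irf7, which drives type I interferon genes, at 10.72, 11.81 and 9.58. Both were highest on the Plin2 array, but the Plin5 array was above the empty vector for Irf1 and below it for Irf7. Macrophage markers were higher for 20 of 22 on the same array, with none under the dim level on the empty vector array. Their part in the level of these factors was not tested.

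Muscle regulators were near the background, with 4 of 49 higher (8.16%) and 4 lower (8.16%), and the members past 1.5-fold are given as single genes. Myf5 (8.25, 9.35 and 8.02) and Myog, factors of muscle precursors, were higher, while Myod1 of the same family was at 9.65, 9.79 and 9.51, within 1.5-fold. Lower were Klhl31 at 12.28, 11.35 and 12.33, the cofactor Vgll2 at 8.87, 7.99 and 9.15, and the muscle methyltransferase Smyd1 at 12.26, 11.53 and 12.27. Lbx1, a homeobox factor of limb muscle precursors, was lower too at 9.53, 8.69 and 9.52. Homeobox and T-box factors were near the empty vector, with 1 of 57 lower (Satb1, 10.09, 9.30 and 10.26) and 0 higher. Many were dim, with a median level of 6.54 on the empty vector array and equal values for 26. In the dimmest of 5 groups of kept genes, only 3.44% were higher and 0.83% lower. Metabolic and lysosomal factors and mitochondrial regulators were near the background, with 2 of 26 higher (7.69%) and 2 lower (7.69%). Of the lower genes, Mlxipl, the carbohydrate-responsive factor ChREBP, stood at 9.21, 7.44 and 9.39 (3.42-fold lower). Of 87 factors of the MYC, E2F, p53, HIF, SMAD, FOX, SOX, GATA, KLF and EGR families, 5 were higher (5.75%) and 6 lower (6.90%), near or below the background, and 76 were within 1.5-fold. Among those past it, Sox6, a repressor of slow fibre genes, stood at 9.80, 8.91 and 9.75, and Foxo4, a forkhead factor, at 9.10, 8.28 and 9.20. Hif1a, the hypoxia-inducible factor, was higher at 9.62, 10.41 and 9.79, as was Sox11 at 7.79, 8.68 and 7.64. Of 41 factors of the AP-1, ATF and C/EBP families 6 were higher (14.6%, against 8.84% of all genes), all by less than 0.65. Junb (0.63), Cebpa (0.64) and Atf3 (0.62) were at 0.57, 0.58 and 0.56 after median-centring.

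**Figure D5:**
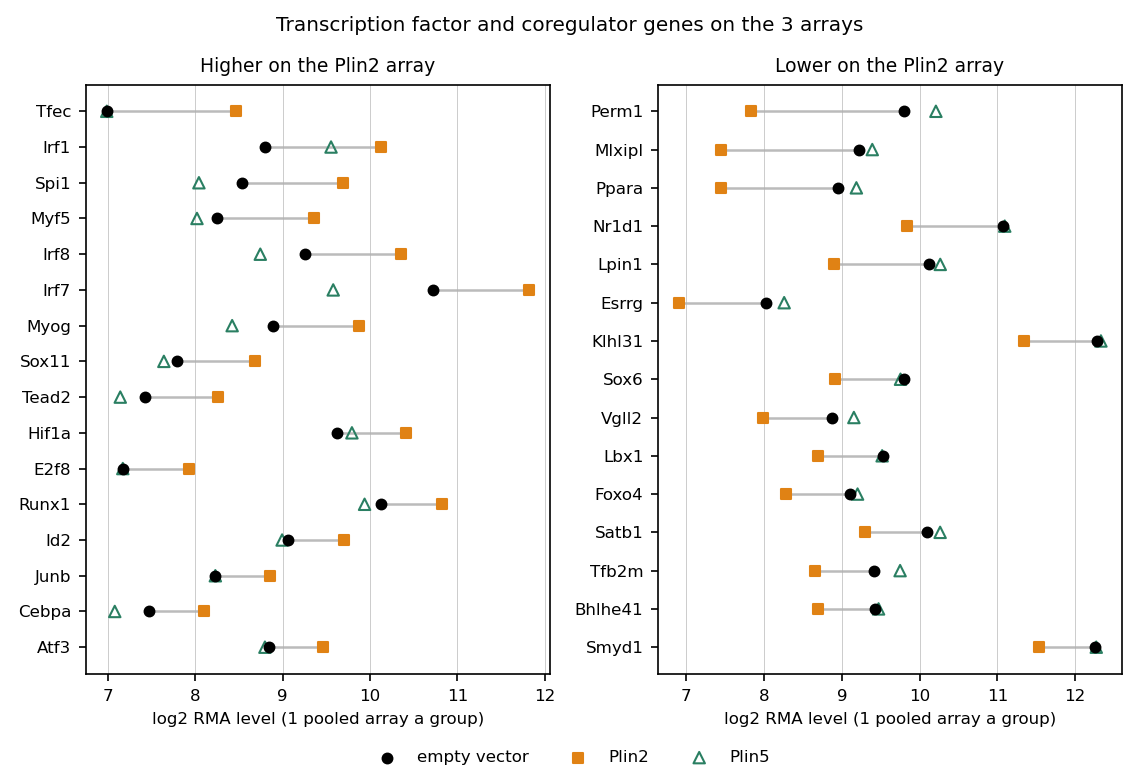
Log2 levels of named transcription factor and coregulator genes that were higher (left) or lower (right) on the Plin2 array, on the empty vector (black circles), Plin2 (orange squares) and Plin5 (green triangles) arrays, 1 pooled array a group. The left panel runs from Tfec (1.47) to Atf3 (0.62) and the right panel from Perm1 (−1.97) to Smyd1 (−0.72).

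Promoters of kept genes were also searched for the interferon-stimulated response element (GAAA, any 2 bases, GAAA) on both strands, since interferon factors bind that sequence. It was present in 3.77% of all promoters in the table, in 2.96% of those of kept genes, in 66 of 771 higher genes (8.56%) and in 10 of 530 lower genes (1.89%). Lower genes with a match included Fgf1, Vegfa and Plin5. Irf7 and Ifit3, an interferon-induced gene that stood at 8.88, 10.61 and 8.58, are shown because both hold a match, in capitals as read on the strand of the gene. Irf7 lies on the minus strand at chr1:205800024-205800273, with the match 69 bases before the start, and Ifit3 on the plus strand at chr1:241527076-241527325, with the match 44 bases before the start. The GRCr8 sequence is written 5′ to 3′.
Irf7: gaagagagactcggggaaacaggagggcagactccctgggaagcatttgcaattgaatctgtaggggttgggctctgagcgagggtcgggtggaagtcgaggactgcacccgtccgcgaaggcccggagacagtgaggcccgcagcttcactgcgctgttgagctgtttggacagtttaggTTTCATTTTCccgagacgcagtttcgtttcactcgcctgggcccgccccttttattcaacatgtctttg
Ifit3: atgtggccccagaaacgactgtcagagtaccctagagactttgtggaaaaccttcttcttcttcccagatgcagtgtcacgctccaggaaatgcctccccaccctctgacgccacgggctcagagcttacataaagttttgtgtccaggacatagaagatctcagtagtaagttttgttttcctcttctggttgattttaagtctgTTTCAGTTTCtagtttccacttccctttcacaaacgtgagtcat

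The sequence GAGGAAGT, of the kind that PU.1 binds, was present in 2.44% of all promoters, 6.23% of those of higher genes and 1.70% of those of lower genes. Its share over kept genes is not given, so neither group is placed against that background. AAGGTCA, of the kind that estrogen-related receptors bind, was in 4.37% of all promoters and in 2.91% of those of kept genes, with 4.80% of higher and 5.28% of lower genes. Perm1 is shown for that sequence, in capitals on the opposite strand, at chr5:172081999-172082248 (GRCr8, plus strand), where it begins 200 bases before the start. These sequences were chosen from 14 after their shares had been seen. Of the others, the short form GAGGAA was in 38.1% of higher and 23.4% of lower genes, and TGANTCA (AP-1) in 7.78% and 5.47%. TGACGTCA (CREB) was in 0.78% and 3.21%, and CACGTG in 6.74% and 7.92%. The share over all kept genes is not set beside these values, so they do not place either group against the background. For SRF only a fixed form of the CArG box was searched, with no variable bases. That form was in no promoter of higher or lower genes, and in 3 promoters of kept genes. Other forms of the CArG box were not searched, so their presence in either group is not known. A match is a description of the letters in this window and not of binding.
Perm1: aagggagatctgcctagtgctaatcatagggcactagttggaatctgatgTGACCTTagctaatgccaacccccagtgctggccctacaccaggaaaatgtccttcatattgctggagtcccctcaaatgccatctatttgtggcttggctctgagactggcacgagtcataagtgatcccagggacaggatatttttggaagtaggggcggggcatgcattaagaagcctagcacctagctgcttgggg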

How the data were processed

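RNA from the tibialis anterior was hybridised to 1 array per group, and each array held a pool of 6 rats, as the labels' protocols state. The authors deposited log2 levels made with RMA, per the submitters' processing notes, which name no version; base 2 is taken from how RMA works and is not written in the table. RMA subtracts background, gives all arrays 1 distribution and combines probes by median polish, so a change in total RNA is hidden and many probe sets have equal values. Chip description and build: not given in the sources used here.

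No further scaling was applied. The table had 29214 probe sets. By the platform's annotation, 15310 carried 1 gene symbol, 323 carried more and 13581 none that was listed; the last 2 kinds entered no gene. Entrez numbers of 15279 matched the RefSeq table (GRCr8), and 0 symbols changed. For 527 of 14506 genes the brightest of several probe sets was taken. The 25th percentile of the gene means (5.34) was the dim limit.

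Genes were counted at 1.5-fold. With 1 array a group there was no test, p-value or standard deviation, and the number of arrays limits the precision. The counting was run on simulated data with set differences above the threshold and little noise. That run checks the code and not the precision of the counts. Named genes were the perilipins, the 20 largest differences each way, up to 5 each way per list, all of the neuromuscular junction list and up to 3 at either end of each marker list; predicted and LOC-type symbols were counted and not named. The members and lists were chosen with earlier results of these data known. Alternatives were the fold, the dim filter, centring, repeated quantile normalization, the mean of probe sets and a loess correction for level.

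Promoters came from a RefSeq table (GRCr8); 8998 kept genes and 241 of 321 named genes matched. Of 14 sequences searched on both strands, those described in detail were chosen after their shares were seen, and printed promoters were chosen because they hold a match. Protein sequences were not used here. Calculations used pandas 2.3.3 and numpy 2.4.6 under Python 3.11.15, statsmodels 0.14.6 for loess and matplotlib 3.10.9 for plots.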

Additional observations from a re-analysis of the deposited data

Results flagged for a closer look

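Probe sets without a single gene symbol were outside the comparisons above and also held differences. Of 7293 such probe sets with a mean at or above the dim level, 354 (4.85%) were at least 1.5-fold higher on the Plin2 array and 342 (4.69%) at least 1.5-fold lower. Among kept genes the shares were 8.84% and 5.80%. What these probe sets measure is not named here.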

How the results depend on the processing

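No paired analysis was possible because each group had 1 array, and for the same reason no replicate could be left out. The counts of higher and lower genes, over all genes and in the 4 classes, gave 70 values under 7 alternatives. Of these, 60 were within 1.5 times the count at 1.5-fold, and the other 10 were the counts at 2-fold: 272 higher and 142 lower over all genes, 39 and 4 secreted, 30 and 16 membrane, 10 and 9 neural, and 9 and 7 transcription factor genes. A stricter fold leaves fewer genes by its construction. Median-centring moved the median of kept genes by 0.05 and turned the larger side for transcription factor genes (25 higher, 27 lower); for all genes 52.8% of the genes past 1.5-fold were then higher, against 60.4%. For neural genes that share was 65.4% before and 55.3% after. For the 321 named genes, 1246 of 1284 values stayed on their side of 1.5-fold, 37 went under it, 1 went past it and 0 changed direction. Levels under the dim limit on 1 side (14 higher and 7 lower genes) leave the size of a difference uncertain.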

Other observations

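Gene families grouped by symbol, whether or not their members were in the 4 classes, showed a few shares away from the background of 8.84% higher and 5.80% lower. Tubb2b, for example, is a tubulin that was also counted as neural. They were singled out after their values were seen. Of 13 genes of the ASB family, which supply the substrate-binding part of ubiquitin ligases, 7 were lower and 0 higher, with a median of −0.65. Asb10 stood at 8.69, 6.94 and 8.88 on the empty vector, Plin2 and Plin5 arrays, Asb11 at 10.31, 8.76 and 10.62, and Asb2 at 11.09, 9.75 and 11.21. The Plin2 array was the lowest for each. Of 20 dual specificity phosphatases, which act on MAP kinases among others, 6 were lower and 1 higher; Dusp8 stood at 9.37, 8.16 and 9.53 and the higher Dusp2, known in immune cells, at 7.88, 8.83 and 7.57.

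Tubulin genes were higher for 6 of 17 and lower for 1. Tubb2a stood at 8.05, 8.88 and 7.77, and Tubb6, which is known in regenerating muscle, at 9.81, 10.52 and 9.15, while Tuba8, an isotype of muscle, was lower at 9.73, 8.47 and 9.64. Tubulin genes have close copies, so their levels are uncertain. Of 29 tyrosine phosphatases, 9 were higher and 1 lower: Ptpn6 of leukocytes stood at 8.30, 9.36 and 7.91, and Ptpn3 at 9.61, 8.12 and 9.92. Zinc finger genes of the Zfp and Znf series were close to the empty vector, with 3 of 142 higher (2.11%) and 2 lower (1.41%), and of 34 Zbtb genes none was past 1.5-fold.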
